A study of Mus musculus with 6 samples.

Results

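Pthlh and Pth1r encode parathyroid hormone-related peptide (PTHrP) and the receptor it shares with parathyroid hormone. The 2 genes were picked by name, and selected on earlier results of the same table, from the 15648 genes that the authors' deposited table lists; both are in it. RNA came from the intermolar eminence, the raised part of the back of the tongue between the molars, of C57BL/6 mouse embryos at E17.5. There were 3 libraries from wild-type embryos (WT) and 3 titled Fst-KO, from mutants of follistatin (Fst), whose secreted product binds activins and certain BMPs. The sources used here do not give the mutant allele, its zygosity or the number of embryos behind a library.

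PTHrP acts mainly as a local signal. In developing teeth, hair follicles and mammary buds, epithelial cells release it and neighbouring mesenchymal cells carry the receptor, and in growing cartilage it delays the maturation of chondrocytes. The receptor, PTH1R, is a class B G protein-coupled receptor. It acts mainly through Gs, adenylyl cyclase, cAMP and protein kinase A, and also through Gq and phospholipase C.

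The table holds 1 normalised mean per group for each gene, with a ratio of labelled Fst-KO over WT, a p-value and a false discovery rate (FDR) from the authors' gene-specific analysis. Values per library were not analysed here, so no SD or interval stands beside any mean, overlap between libraries cannot be judged, and the depth is unknown. Nothing states that the 6 libraries came from separate animals, so the p-values may reflect technical spread alone. Fst itself was listed higher in the libraries labelled Fst-KO, with means of 69.7 and 33.2 per the authors' deposited table. Its ratio was 2.10 and its FDR 0.0158 there. RNA of the targeted gene was thus higher, not lower, under the knockout label. With the allele not given, this does not settle whether the groups are labelled rightly. Every direction below is that of the labels. Ratios were above 1 for 81.0% of all genes, with a median of 1.14. The labels call the tissue tongue epithelium, yet skeletal muscle markers were listed as well, with summed means of 9602 in the libraries labelled Fst-KO and 13064 in WT, and epithelial markers had 13108 and 9557, per the authors' deposited table.

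Pthlh, the ligand, had 1 of the largest ratios of the table. The authors' deposited table lists its mean as 0.950 in WT and 4.84 in the libraries labelled Fst-KO, a ratio of 5.09 (2.35 on the log2 scale). The gene was thus near the lower end of the listed range in WT, where 0.741% of genes had a lower mean, and above 20.3% of genes in the other group. Its ratio was the 14th highest of all genes. The p-value of Pthlh per the authors' deposited table was 6.18e-05, and 17 genes had a lower one. Its FDR there was 0.0537, just outside the threshold of 0.05 that 15 genes, or 0.0959% of the table, passed. These values are from the contrast on which the gene was chosen and are given as a description. Set against the median of all genes, its ratio was 4.48.

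The low WT level of Pthlh bears on how its ratio can be read. The smallest geometric mean of both groups in the table is 1.01, and Pthlh at its WT level in both groups would have had 0.950. No gene is listed below that smallest value, and the rule behind it is not stated, so Pthlh may be in the table only through its higher mean in the libraries labelled Fst-KO. Other genes were alike in this: 173 had a WT mean below 1 per the authors' deposited table and all 173 had a ratio above 1, with a median of 1.57. Pthlh had the 4th highest ratio of these. Among the 1898 genes whose mean over both groups lay within 1.5-fold of that of Pthlh, 3 had a higher ratio and the median was 1.18. With 1 added to both group means the ratio of Pthlh was 2.99.

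Pth1r, the receptor, had a smaller ratio, and its difference did not pass the test. The authors' deposited table gives means of 6.61 in WT and 8.69 in the libraries labelled Fst-KO, a ratio of 1.32 (0.40 on the log2 scale). Its p-value there was 0.152 and its FDR 0.379. Set against that median its ratio was 1.16. Of the 2831 genes with a mean within 1.5-fold of that of Pth1r, 576 had a higher ratio. The ratio of the ligand was 3.87 times that of the receptor, a difference that was not tested. Counted together, 0 of the 2 genes passed the FDR. An unadjusted p under 0.05 with a higher mean in the libraries labelled Fst-KO was listed for 1 of 2, and for 13.4% of all genes. The pair was selected on this contrast, so its share is a description and cannot be weighed against that of all genes. In whole tissue, fewer cells of a type and less RNA per cell cannot be told apart.

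**Figure D1:**
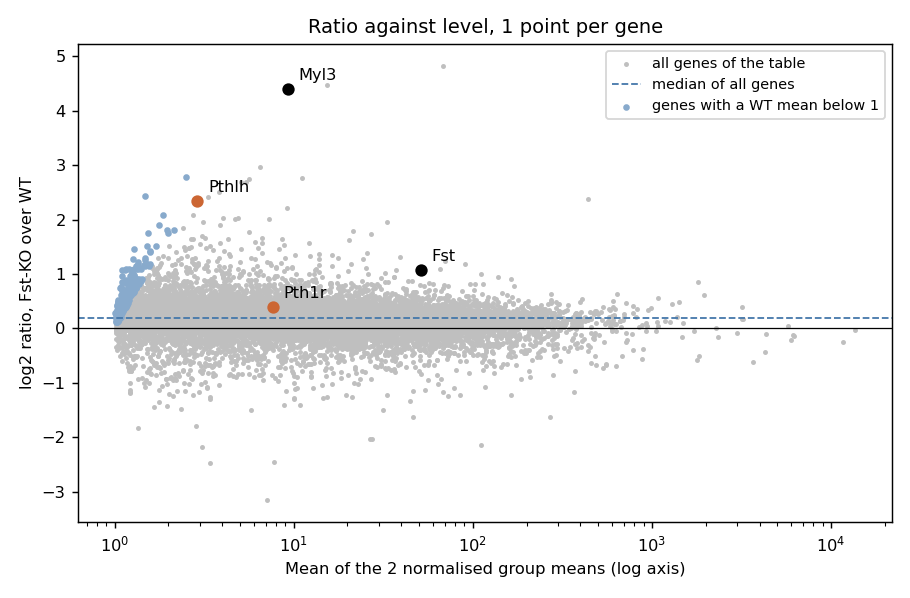
Each point is 1 gene of the authors' deposited table, placed by the mean of its group means (log axis) and its log2 ratio of labelled Fst-KO over WT; blue points have a WT mean below 1 and the dashed line is the median of all genes. Pthlh lies at a log2 ratio of 2.35 at the low end of the level axis and Pth1r at 0.40, inside the band of genes of like level.

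Both genes are on the minus strand, and their surroundings differ. Pthlh spans 147252101 to 147264183 on chromosome 6 (mm10, GENCODE M21) with 2 coding transcripts of 4 exons each, and 0 annotated genes overlap it. Pth1r spans 110722085 to 110747145 on chromosome 9, with 6 coding transcripts, of which the full-length ones have 14 to 16 exons. The gene for the slow and ventricular myosin light chain, Myl3, lies there on the plus strand. In GENCODE M21, 1 of its 5 transcripts shares 95 exon bases with 1 of the 6 Pth1r transcripts (chr9:110741939-110742033), which is 3.25% of the exon bases of Pth1r. In RefSeq both genes are 16532 bases apart. Myl3 had means of 0.843 in WT and 17.7 in the libraries labelled Fst-KO, a ratio of 20.98, per the authors' deposited table. The sources used here do not give the annotation or say whether the counting used strand, so reads of both genes cannot be told apart over those 95 bases, and their part in the value of Pth1r was not tested.

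The sequence before the outermost start of each gene in GENCODE M21 or RefSeq is printed here, with bases from RefSeq on GRCm38.p6. The lines give the minus strand, 5′ to 3′, of chr6:147264184-147264263 for Pthlh and chr9:110747146-110747395 for Pth1r, with the motif matches found in capitals.
Pthlh: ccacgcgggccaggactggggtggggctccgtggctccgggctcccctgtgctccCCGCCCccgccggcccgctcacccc
Pth1r: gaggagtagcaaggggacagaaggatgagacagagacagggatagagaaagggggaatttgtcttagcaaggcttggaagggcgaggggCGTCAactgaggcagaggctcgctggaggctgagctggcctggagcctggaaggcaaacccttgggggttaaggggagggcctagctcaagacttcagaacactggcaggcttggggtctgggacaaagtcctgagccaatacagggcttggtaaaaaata
The 80 bases of Pthlh are 82.5% G or C and the 250 bases of Pth1r 56.0%. These stretches differ in length and place. Over RefSeq windows of 300 bases, the share was 74% for Pthlh. For the 3 starts of Pth1r it was 54.3%, 68% and 69.3%. The capitals in Pthlh mark a GC box (GGGCGG on either strand) at -195 from the RefSeq start. That start lies downstream of the GENCODE M21 starts, and the window of 300 bases around it holds 4 GC boxes. A GC box is found in 35.7% of the 32851 windows of that length. The capitals in Pth1r mark the short form of the cAMP response element (TGACG on either strand), the element that CREB binds, which 20.8% of windows hold. RefSeq gives Pth1r 2 further starts inside the gene, whose windows hold 1 and 4 GC boxes. The full cAMP response element (TGACGTCA, in 1.79% of windows), a GLI site (TGGGTGGTC, 0.253%), a SMAD palindrome (GTCTAGAC, 0.213%), an AP-1 site (TGANTCA, 7.81%) and a TATA box (TATAAA, 13.6%) had no match in any of the 4 windows. A match or its lack describes these letters alone.

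Ratios of the closest relatives of the pair are given beside that of Pthlh, which was chosen on this contrast. Of 18 peptide ligands of class B receptors, 4 were measured. Besides Pthlh these were Calcb, for a form of the neuropeptide CGRP, at a ratio of 1.34, the urocortin Ucn2 at 1.27 and adrenomedullin (Adm) at 0.932 per the authors' deposited table. None of these 3 had an unadjusted p under 0.05, beside 13.4% higher and 2.17% lower among all genes. Parathyroid hormone itself (Pth), Pth2 and the second receptor gene Pth2r had no entry among the genes listed by the authors. Of 15 class B receptor genes 7 were measured, and Pth1r had the highest ratio. Calcrl, the receptor for CGRP and adrenomedullin, had means of 26.5 and 22.6 in WT, which is a ratio of 1.17 (p-value 0.0428) per the authors' deposited table. The incretin receptor gene Gipr was lower, at 4.99 against 8.39 in WT, or 0.595 of it (p-value 0.0343) per the authors' deposited table. The calcitonin receptor gene Calcr had a ratio of 1.20, Adcyap1r1 0.972, Glp2r 0.931 and Vipr2 0.892 per the authors' deposited table, all with a p above 0.05.

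**Figure D2:**
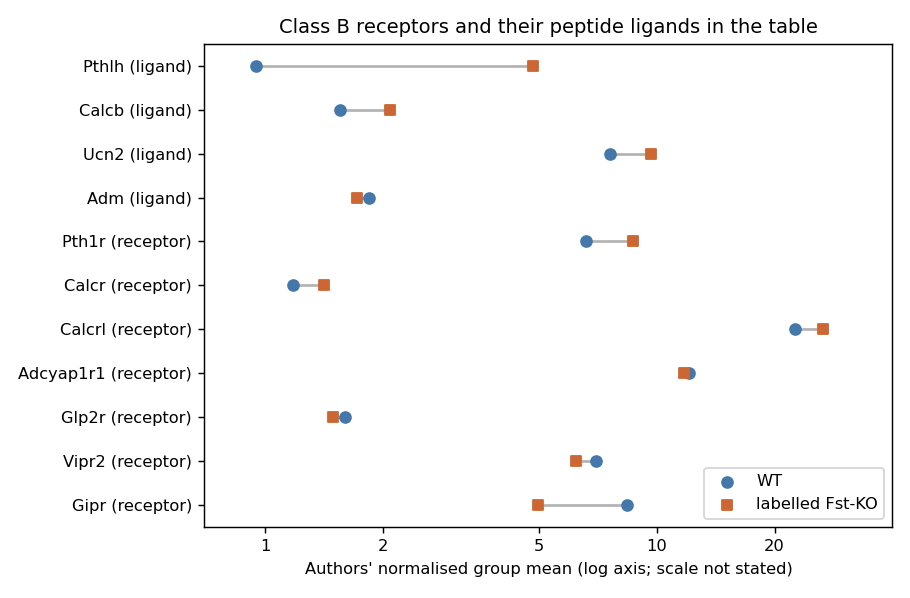
The authors' normalised group means (log axis) of the 4 ligands and 7 class B receptors in the table, with circles for WT and squares for the libraries labelled Fst-KO. Pthlh goes from 0.950 to 4.84, while Pth1r goes from 6.61 to 8.69; distances within a row can be compared, levels between rows cannot, because scaling by gene length is not stated.

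The other genes of the pathway were taken from 17 lists, from the processing of the peptide to its known target genes. Of 167 listed genes besides Pthlh and Pth1r, 122 were measured. None of them, 0 of 122, passed an FDR of 0.05 by the authors' deposited table, beside 0.0959% of all genes, and the lowest FDR was 0.0936, for Sox9. With no adjustment, 19 (15.6%) had a p under 0.05 with the higher mean under the Fst-KO label and 5 (4.10%) with the lower, against 13.4% and 2.17% of all genes. Their median ratio was 1.10, beside 1.14 for all genes. The higher share lay near that of the whole table, and the lower share was above it, a difference that was not tested. Where a single member of a list had such a p, it is named after its value was seen, with the most abundant members.

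Among genes that cut, clear or import the peptide into the nucleus, 6 of 8 were measured. All 6 had a ratio above 1, as did 81.0% of all genes. The median of the list was 1.14, beside 1.14 for all genes. Furin, a proprotein convertase, had means of 105 and 92.7 in WT and the nuclear import factor Kpnb1 213 and 186, ratios of 1.14 and 1.15 per the authors' deposited table, neither with an unadjusted p under 0.05. The membrane peptidase gene Mme had a ratio of 1.48 and a p-value of 0.0151 per the authors' deposited table.

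For the step next to the receptor, all 5 G protein alpha subunits were measured; 0 had an unadjusted p under 0.05 and their ratios ran from 1.01 to 1.16. Gnas, which encodes Gs alpha, had means of 398 and 374 in WT and a ratio of 1.06 per the authors' deposited table, and Gna11 had 1.11. The adenylyl cyclases, which make cAMP, went both ways: Adcy7 was higher at 1.57 (p-value 0.000788), and Adcy9 and Adcy5 were lower at 0.673 and 0.716 (p-values 0.00842 and 0.0122), per the authors' deposited table. Over 8 measured cyclases the median ratio was 1.02. Of 6 protein kinase A subunits, the regulatory gene Prkar1b had a ratio of 1.35 and the catalytic gene Prkaca, at 212 against 276 in WT, had 0.766 per the authors' deposited table, with p-values of 0.0143 and 0.0494. The median of these 6 was 0.959, below 1 and below the median of all genes.

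On the branch through Gq, 7 of 8 phospholipase C beta and protein kinase C genes were measured. Prkcb had a ratio of 2.12 (p-value 0.00173) and Prkcd 1.40 (p-value 0.0157) per the authors' deposited table. Prkcb also had a WT mean below 1, at 0.702, where all listed genes had a ratio above 1. The 8 measured cAMP phosphodiesterases, which break cAMP down, had ratios from 0.893 to 1.32, and 0 had an unadjusted p under 0.05. Pde7a had means of 51.3 and 51.5 in WT, and Pde3a 19.0 and 19.2, per the authors' deposited table.

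Genes for partners of the receptor showed 1 higher and 1 lower member at an unadjusted p under 0.05 among 12. The shares among all genes were 13.4% and 2.17%. Adrbk2, for the receptor kinase GRK3, was lower at 23.8 against 37.5 in WT, or 0.635 of it (p-value 0.00539) per the authors' deposited table. Grk6, another receptor kinase, had a ratio of 1.23 and a p-value of 0.0180 there. The other genes of the list lay between 0.888 (Slc9a3r1) and 1.32 (the arrestin gene Arrb2).

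Nuclear factors that read the cAMP signal had ratios near the median of all genes. The 8 CREB factors and coactivators ran from 1.08 to 1.24, among them Creb1 at 1.12, Ep300 at 1.12 and the coactivator Crtc2 at 1.24, the last with a p-value of 0.0399 per the authors' deposited table. In the branch of salt-inducible kinases and class IIa histone deacetylases, Hdac7 had a ratio of 1.27 (p-value 0.0207). The muscle-rich factors Mef2c and Mef2a, the most abundant of that branch, had 0.783 and 0.879 per the authors' deposited table, neither with an unadjusted p under 0.05. Early genes that cAMP can switch on had a median of 1.09 over 12 measured. Fosb had a ratio of 1.997 (p-value 0.0492) and Fos, the most abundant, 1.40 (p-value 0.226) per the authors' deposited table.

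Known targets of PTHrP in skeleton and mesenchyme had medians near that of all genes. Of 17 cartilage and bone genes 11 were measured, with a median ratio of 1.12. Sox9, a regulator of chondrocytes that progenitors of several epithelia also express, had means of 26.0 and 15.6 in WT and a ratio of 1.67, and Wnt5b had 1.34, per the authors' deposited table. Tnfsf11, the gene for RANKL and a classic target, and Ihh, whose product drives Pthlh in cartilage, had no entry among the listed genes. Of the 8 measured genes of the mammary and tooth mesenchyme list, 0 had an unadjusted p under 0.05. Among all genes 13.4% were higher and 2.17% lower at that p. Tnc and Bmpr1a had ratios of 1.10 and 1.09 per the authors' deposited table.

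A further list held genes linked to the control of Pthlh in other tissues, and 14 of them were measured. Its members, among them Gli3 and Vdr, need not all raise Pthlh, so higher ratios are not read as more input to it. Before adjustment, 6 of the 14 had p below 0.05 with a ratio above 1, and 0 with a ratio below 1. The shares among all genes were 13.4% and 2.17%. The list median of 1.13 lay close to that of all genes. The Hedgehog ligand Shh had means of 4.09 and 1.77 in WT, and the factors Gli1 and Gli2 had ratios of 1.84 and 1.34 per the authors' deposited table. The receptor gene Tgfbr2 had 1.23 there, and the other 2 were Gli3 at 1.20 and Tgfb1 at 1.26, named after their values were seen. Hedgehog genes were already known to be higher in this table when the list was drawn up, so their count is not independent. Among genes of mineral ion balance, 6 of 15 were measured: the phosphate carriers Slc20a1 and Slc20a2 had ratios of 1.41 (p-value 0.00408) and 0.989 per the authors' deposited table.

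**Figure D3:**
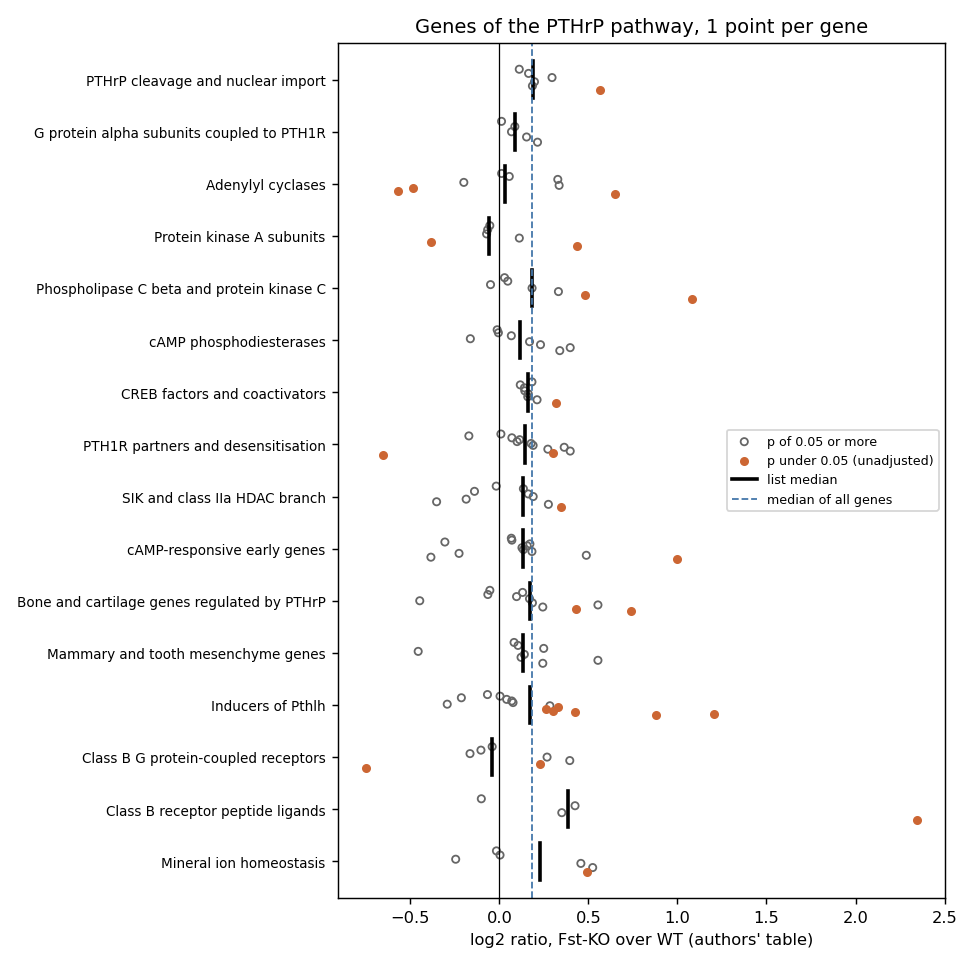
Log2 ratios of labelled Fst-KO over WT from the authors' deposited table for the measured genes of 16 pathway lists, with filled points at an unadjusted p under 0.05, bars for list medians and a dashed line at the median of all genes. Most list medians lie close to the dashed line, and the point at 2.35 in the ligand list is Pthlh.

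Markers of several cell types differed in the same comparison at an unadjusted p under 0.05, and their values stand beside those of both genes. For epithelium, the usual source of PTHrP, all 13 markers were measured, with a summed mean of 13108 in the libraries labelled Fst-KO and 9557 in WT and a median ratio of 1.29. An unadjusted p under 0.05 went with 4 higher and 0 lower members, beside 13.4% and 2.17% of all genes: Epcam, a marker of simple and basal epithelium, at 2.02, Krt5 at 1.53, Dsg3 at 1.496 and Krt14 at 1.47 per the authors' deposited table. No epithelial marker had a ratio above 2.02, and Krt10 had the lowest, 0.423. For fibroblast mesenchyme, the usual site of the receptor, all 12 markers were measured, with sums of 5623 and 4241 in WT and a median of 1.27. All 12 had a ratio above 1, as did 81.0% of all genes. At an unadjusted p under 0.05, 5 of the 12 were higher and 0 lower, beside 13.4% and 2.17% of all genes. The 5 were Thy1 at 1.60, Col1a1 at 1.40, Col3a1 at 1.37, Dcn at 1.35 and Col1a2 at 1.30 per the authors' deposited table. The ratio of Pth1r, 1.32, lay inside the range of these markers, from 1.02 to 1.60. The part of tissue makeup in either value was not tested.

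PTHrP also acts in the skeleton, and markers of bone and cartilage were measured too. Of 8 osteoblast markers 5 were measured, with summed means of 12.1 and 10.4 in WT. Phex had a ratio of 2.31 per the authors' deposited table, Sp7 1.12 and Ibsp 0.878, and the defining marker Bglap had no entry there. The 7 measured chondrocyte markers had sums of 71.1 and 53.4 in WT and a median ratio of 1.31; by unadjusted p under 0.05, 3 were higher and 1 was lower, beside 13.4% and 2.17% of all genes. Hapln1 had 1.82, Col9a1 1.78 and Sox9 1.67 per the authors' deposited table. Hapln1 and Col9a1 had WT means below 1, at 0.989 and 0.839, where all 173 listed genes had a ratio above 1. Col2a1, the main collagen of cartilage, was lower at 2.45 against 3.93 in WT, a ratio of 0.623, per the authors' deposited table. The part of these cells in the values of Pthlh and Pth1r was not tested.

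Other cell types were measured for the same reason. Skeletal muscle had a median ratio of 0.777 over 10 markers, 3 of them lower and 0 higher at an unadjusted p under 0.05, beside 2.17% and 13.4% of all genes (Myh8 at 0.655, Des at 0.769 and Ckm at 0.678 per the authors' deposited table). Smooth muscle, in which blood vessels carry the receptor, had a median of 1.03 over 8 markers and sums of 474 and 445 in WT, with Cspg4 at 1.06 and Acta2 at 0.994 per the authors' deposited table and 0 members under that p. Endothelium had a median of 1.00 over 8 markers, and Cdh5 and Pecam1 had ratios of 0.967 and 0.9903 per the authors' deposited table. Of 7 nerve and Schwann cell markers 2 were higher and 0 lower at that p, beside 13.4% and 2.17% of all genes. The 2 were Cdh19 at 1.62 and Sox10 at 1.59 per the authors' deposited table. The most abundant nerve and Schwann cell markers, Ngfr and Tubb3, had ratios of 0.821 and 0.732 with p above 0.05. The list's summed means were 68.3 and 69.1 in WT, per the authors' deposited table. Leukocyte markers had a median of 1.59 over 9, with 6 higher and 1 lower at that p, beside 13.4% and 2.17% of all genes. The lower member was Kit, a receptor gene that mast cells also express, at 20.8 against 26.5 in WT, a ratio of 0.784 (p-value 0.0352) per the authors' deposited table. Their mast cell protease genes Cma1, Mcpt4 and Cpa3 had ratios of 3.13, 2.87 and 2.57, and the pan-leukocyte gene Ptprc 1.59, per the authors' deposited table. Cma1, a mast cell protease, was the only marker of these 9 lists with an FDR under 0.05 (0.0386). Of all markers in the 9 lists, these 3 protease genes had the highest ratios.

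**Figure D4:**
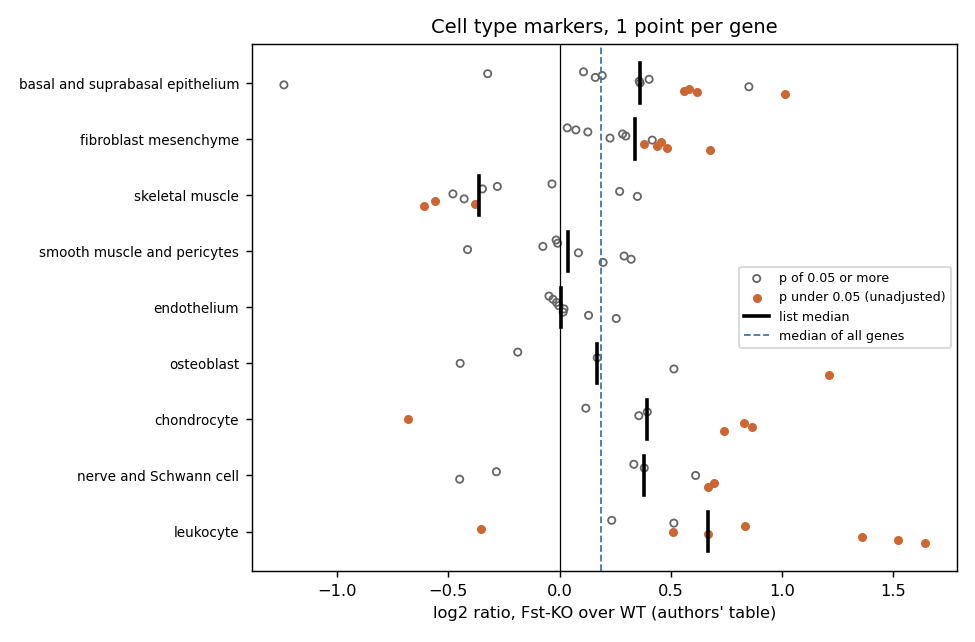
Log2 ratios of labelled Fst-KO over WT from the authors' deposited table for markers of 9 cell types, drawn as in the plot of pathway genes. Epithelial, mesenchymal, chondrocyte, nerve and leukocyte medians lie to the right of the dashed median of all genes. Those of skeletal muscle, smooth muscle, endothelium and osteoblast lie to its left.

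Likeness to each gene was measured as the distance between log2 values over the 2 group means, which is a description of levels alone. Nearest to Pthlh were Fabp5l2 (distance 0.19), Dmrta2 (0.43) and Cyp4b1 (0.52), with ratios of 4.23, 3.86 and 3.12 per the authors' deposited table. Only Dmrta2, a transcription factor gene, had a low FDR among these 3, 0.0573. Nearest to Pth1r were Hps3, Fer and Dna2, each at a distance of 0.01 or 0.02 and with ratios of 1.31, 1.33 and 1.30 per the authors' deposited table.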

How the data were processed

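The single deposited file compares 3 mutant with 3 WT libraries of mouse tongue RNA. The tools named are BWA 0.7.12 and Partek with build mm10, per the submitters' processing notes. The sources used here do not give the annotation, the normalisation or the settings of the gene-specific analysis.

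The group means are a normalised signal, per the file headers least-squares means made by the authors. The ratio is the authors' quotient of those means, and its p-value and FDR columns were likewise made by the authors, per the file headers. For all 15648 genes the ratio equalled the quotient, the FDR equalled a Benjamini-Hochberg adjustment and the deposited total equalled 3 times the sum of the means (relative tolerance 1e-06). The mutant column was read as the Fst-KO libraries, since no other mutant is in the series.

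Pthlh and Pth1r, the 26 gene lists (17 pathway, 9 marker) and the motifs were chosen with earlier results of these data known; the GC box was added after the promoters had been read. Lists hold 253 symbols, of which 200 matched the table; a nerve and Schwann cell marker of the original list is not reported here and was left out of its counts. Named were all class B receptors and ligands, from other lists up to 4 members with the lowest p under 0.05 or else the 2 most abundant, and the 3 nearest genes by level. Positions are from GENCODE M21 on GRCm38, and upstream sequences from RefSeq. No test was run anew: an exact permutation test, with 3 against 3 libraries, could not go below 0.1. The adjustment was tested on simulated data. Alternatives were other scalings, a pseudocount of 1 and other thresholds. Python 3.11.15 with pandas 2.3.3 was used.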

Additional observations from a re-analysis of the deposited data

How the results depend on the processing

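Each scaling tried lowered the ratios of Pthlh and Pth1r, from 5.09 and 1.32. Adding 1 to both means cannot move a ratio across 1, and the other scalings divide the ratios of all genes by the same constant. The ratios were 4.48 and 1.16 when set against the median of all genes, with both group sums made equal 4.78 and 1.24, with the sums made equal without the most abundant 1% of genes 4.67 and 1.21, and with 1 added to both means 2.99 and 1.27. Of the 122 pathway genes besides these, 0 passed an FDR under 0.05, 1 (Sox9) an FDR under 0.1, 9 an unadjusted p under 0.01 and 24 one under 0.05. After readjustment over the 7824 more abundant genes, those not below the median level, which leaves out Pthlh and Pth1r, 0 passed. No paired analysis was possible because the table gives group means alone, and for the same reason no library could be left out. Depth is unknown, so a limit for the low WT value of Pthlh could not be given.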

Other observations

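The nearest measured genes on each side of Pthlh on chromosome 6 were Klhl42, 139323 bases away, and Ccdc91, 211645 bases away, with ratios of 1.21 and 1.10 per the authors' deposited table. Beside Pth1r on chromosome 9, Ccdc12 lay 10479 bases away on the lower side with a ratio of 1.21, and Als2cl 132725 bases away on the higher side with a ratio of 1.33, per the authors' deposited table. These ratios and the 1.32 of Pth1r were close to each other, while Myl3, which overlaps Pth1r in GENCODE M21, had 20.98. Over all genes the median ratio was 1.14 and the upper quartile 1.24, so ratios of this size were common.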
